A study of Mus musculus with 7 samples.

Results

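A set of 10 genes of inflammatory signalling was followed through islets of neonatal mice: 7 chemokines (Cxcl1, Cxcl2, Ccl2, Ccl7, Cxcl10, Cxcl12 and Cxcl16), the adhesion molecule Icam1 and the feedback inhibitors Nfkbia and Tnfaip3. The genes were picked by symbol, 10 of the 49315 mouse genes in the count files, and with results of these samples already known. The levels and differences of the 10 genes are therefore given as a description, without a test of their own. The samples were βNrf2KO islets, with a deletion of Nrf2 labelled as specific to β-cells (4 libraries, numbered 1, 2, 3 and 4), and control islets of Nrf2lox/lox mice, which carry loxP sites around Nrf2 (3 libraries, numbered 1, 2 and 4). All animals were 7 days old, and the RNA in each library came from 5 animals, while titles number mice singly, so that the spread between libraries is a spread between pools. The sources used here do not give the promoter that drives Cre, the strain or the sex of the animals.

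Chemokines are small secreted proteins that attract leukocytes through G-protein-coupled receptors. In resting cells the transcription factor NF-κB is held in the cytoplasm by IκBα, the product of Nfkbia. Signals from cytokine receptors or from damaged tissue lead to the destruction of IκBα, and NF-κB then enters the nucleus and switches on chemokines, Icam1 and also its own inhibitors, Nfkbia and Tnfaip3 (the ubiquitin-editing enzyme A20), which close the loop. Islet cells and the endothelial, stromal and immune cells of the islet can all make such transcripts, and A20 is known to restrain inflammation in β-cells.

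Promoters are printed for genes of both kinds, since NF-κB is known to induce chemokines and inhibitors alike and most of the chemokines and the inhibitors ran in opposite ways across the pools. RefSeq promoter windows (GRCm38.p6), from 250 bases before the start site to 50 bases after its first base, were found for 7 of the 10 genes and not for Ccl2, Ccl7 and Cxcl16. The κB consensus, the DNA motif bound by NF-κB, was searched on both strands and matched in a window of 5 genes, while Cxcl12 and Icam1 had no match in theirs. Of 32841 mouse promoter windows of the same length, 4.51% held a match. The 200 bases before the start site follow for Cxcl1 (chr5:90891045-90891244, plus strand), Cxcl2 (chr5:90903699-90903898, plus strand), Cxcl10 (chr5:92348890-92349089, minus strand), Nfkbia (chr12:55492648-55492847, minus strand) and Tnfaip3 (chr10:19015411-19015610, minus strand), 5′ to 3′ along the gene, with matches in capitals.
Cxcl1: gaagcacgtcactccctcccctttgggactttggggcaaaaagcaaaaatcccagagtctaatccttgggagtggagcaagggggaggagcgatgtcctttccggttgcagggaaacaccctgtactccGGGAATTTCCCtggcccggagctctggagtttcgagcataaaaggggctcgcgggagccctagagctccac
Cxcl2: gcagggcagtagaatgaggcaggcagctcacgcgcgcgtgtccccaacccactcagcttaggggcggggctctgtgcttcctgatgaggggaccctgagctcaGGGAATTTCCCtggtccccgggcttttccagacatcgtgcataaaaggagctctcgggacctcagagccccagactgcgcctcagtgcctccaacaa
Cxcl10: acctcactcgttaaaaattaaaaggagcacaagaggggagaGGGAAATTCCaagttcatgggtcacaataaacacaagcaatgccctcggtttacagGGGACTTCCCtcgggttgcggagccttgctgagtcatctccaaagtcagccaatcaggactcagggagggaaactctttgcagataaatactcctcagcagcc
Nfkbia: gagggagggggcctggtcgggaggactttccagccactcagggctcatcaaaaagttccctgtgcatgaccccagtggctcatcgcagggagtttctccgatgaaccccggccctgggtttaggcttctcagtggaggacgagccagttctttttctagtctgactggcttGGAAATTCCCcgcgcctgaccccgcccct
Tnfaip3: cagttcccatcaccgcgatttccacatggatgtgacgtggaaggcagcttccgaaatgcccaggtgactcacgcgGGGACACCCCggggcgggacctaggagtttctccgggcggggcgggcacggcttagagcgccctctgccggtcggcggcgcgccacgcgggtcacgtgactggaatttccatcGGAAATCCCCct
Cxcl1 and Cxcl2 held the same 11 letters, GGGAATTTCCC, at -71 to -61 and at -97 to -87 from the start site, where overlapping matches lie on both strands. Cxcl10 held 2 separate matches. Nfkbia held 1 close to its start, and Tnfaip3 held 2 in the printed window and none in a window of a second start site. A match of letters is not a measure of binding, and a window without a match may still hold a site. Near matches were not counted. Icam1, for instance, held TGGAAATTCC, which departs from the consensus in its first letter only.

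The libraries held 18187382 to 20847474 counts in βNrf2KO pools and 21603654 to 25373105 in control pools. Values below are CPM, read counts relative to library size after TMM scaling, which sets libraries to a common level over all tested genes, and a count of 3, the limit that a count of 0 allows, corresponds to between 0.0995 and 0.198 CPM. Such limits cover counting error only. Genes of the mitochondrial genome took 10.02% to 27.7% of counts in βNrf2KO pools and 14.6% to 51.8% in control pools. Nfe2l2, the gene of Nrf2, was at 66.8, 57.8, 67.3 and 58.6 CPM in βNrf2KO pools and at 86.0, 43.2 and 48.4 CPM in control pools, which overlap. Such a sum over the gene cannot separate deleted from intact exons or β-cells from the rest of the islet. The Cre sequence had 24, 23, 46 and 73 counts in βNrf2KO pools and 0 in each control pool. The tissue label fits the islet hormones: Ins2 averaged 26802 ± 4351 CPM in βNrf2KO and 15967 ± 8795 CPM in control pools, and Gcg 11354 ± 6362 and 7295 ± 5476 CPM (SD, n = 4 and 3).

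The clearest pattern among the 10 genes was shared by the 2 genotypes. In both of them pool 1 stood apart: it had the highest level of its genotype for Cxcl1, Cxcl2, Ccl2, Ccl7, Cxcl10, Cxcl16 and Icam1, and the lowest for Nfkbia and Tnfaip3. Pool 1 was the highest in both genotypes for 7 of the 10 genes, against 17.0% of all 19893 tested genes, and the lowest in both for 2 of the 10, against 15.6%. The remaining gene, Cxcl12, was lowest in βNrf2KO pool 1 and in the middle in control pool 1. Since the genes were chosen with results in view, these counts describe them and are not a test. The labels do not say what a pool number stands for. The mitochondrial share was highest in pool 1 among βNrf2KO pools (27.7%) and intermediate in control pool 1 (43.0%), and its part in the pattern was not tested. In bulk RNA fewer cells of a type and less RNA per cell cannot be told apart.

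**Figure D1:**
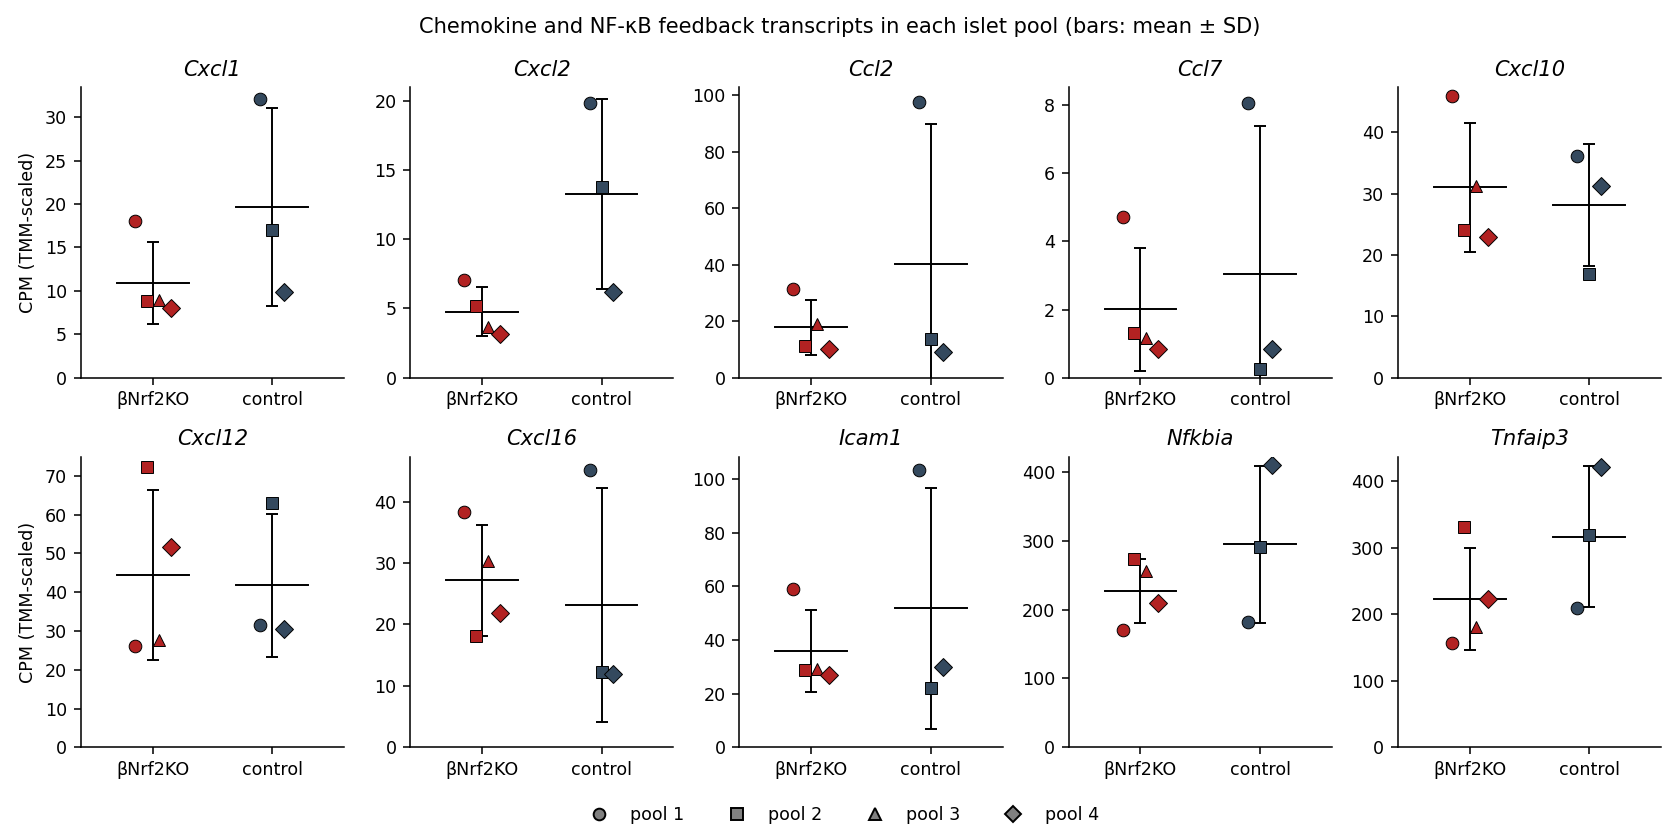
CPM of the 10 genes (y axis, starting at 0) in each βNrf2KO pool (red, left) and control pool (dark, right), with the pool number as the symbol and bars for mean ± SD, cut off at 0. Circles, pool 1, lie at the top of both genotypes for 7 genes and at the bottom of both for Nfkbia and Tnfaip3.

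Cxcl1 and Cxcl2, which attract neutrophils through the receptor Cxcr2, lie next to each other on chromosome 5, with 10755 bases between them (Cxcl1, ENSMUSG00000029380, at 90891241 to 90893115 and Cxcl2, ENSMUSG00000058427, at 90903871 to 90905938, plus strand, GRCm38). Cxcl2 was read at 7.05, 5.19, 3.65 and 3.12 CPM in βNrf2KO pools 1 to 4 and at 19.9, 13.8 and 6.204 CPM in control pools 1, 2 and 4. Only βNrf2KO pool 1 was above the lowest control pool. The means were 4.75 ± 1.77 CPM in βNrf2KO (SD, n = 4) and 13.3 ± 6.84 CPM in control (SD, n = 3), a log2 fold change of -1.48 ± 0.38 (βNrf2KO minus control, standard error of the edgeR fit). Set beside the control pool of the same number, Cxcl2 in βNrf2KO was 0.355, 0.377 and 0.503 times as high for numbers 1, 2 and 4. Of the 10 genes Cxcl2 had the largest difference, and it stayed between -1.83 (without control pool 4) and -1.07 (without control pool 1) when pools were left out 1 at a time.

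Cxcl1 was read at 18.0, 8.79, 8.94 and 8.04 CPM in βNrf2KO pools 1 to 4 and at 32.2, 17.1 and 9.82 CPM in control pools 1, 2 and 4. Its groups overlapped through βNrf2KO pool 1 alone, which was above control pools 2 and 4. The log2 fold change was -0.85 ± 0.39, but leaving out control pool 1 gave -0.29, leaving out control pool 4 gave -1.18, and without βNrf2KO pool 1 it was -1.20. The ratios to the control pool of the same number were 0.560, 0.515 and 0.818. The ratio of Cxcl2 to Cxcl1 counts, which needs no scaling between libraries, was 0.392, 0.590, 0.408 and 0.388 in βNrf2KO pools and 0.617, 0.807 and 0.632 in control pools. All 4 βNrf2KO pools were thus below all 3 control pools in this ratio, which was chosen after its values were seen. Ratios of Ccl2 to Nfkbia, Ccl7 to Ccl2, Tnfaip3 to Nfkbia and Ccl2 to Cxcl1 overlapped between the genotypes. The pools were likewise apart in the lower direction for 3.80% of single genes, and the share among ratios was not computed. No genotype difference is read from this ratio. Of the 50-base stretches of Cxcl2 transcripts 5.84% also occur in Cxcl3, a near copy, which had 0 to 18 counts per pool.

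Ccl2 and Ccl7, which draw monocytes through the receptor Ccr2, are neighbours on chromosome 11 with 8258 bases between them (Ccl2, ENSMUSG00000035385, at 82035571 to 82037453 and Ccl7, ENSMUSG00000035373, at 82045712 to 82047525, plus strand). The antisense gene Gm17268 spans Ccl2 at a mean of 0.0735 CPM. Ccl2 was read at 31.3, 11.1, 19.0 and 10.2 CPM in βNrf2KO pools and at 97.5, 13.8 and 9.12 CPM in control pools. Control pool 1 stood far above the rest, at 8.51 times the mean of the other control pools, and βNrf2KO pool 1 was at 2.33 times the mean of the other βNrf2KO pools. The log2 fold change of -1.17 ± 0.82 rested on that library and was 0.65 without control pool 1. Without both pools numbered 1 it was 0.21, an alternative chosen after seeing the data.

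Ccl7 repeated this pattern at a lower level. It was read at 4.70, 1.31, 1.17 and 0.844 CPM in βNrf2KO pools and at 8.05, 0.264 and 0.8294 CPM in control pools, the lowest of these from 4 counts. Pool 1 was at 4.25 times the mean of the other βNrf2KO pools and 14.7 times that of the other control pools. Its log2 fold change was -0.61 ± 1.01 over all pools, 1.76 without control pool 1, 0.90 without both pools numbered 1, and 0.15 ± 0.47 with the pool number as a block. With an SE larger than the difference, no direction can be read for Ccl7.

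Cxcl10 (ENSMUSG00000034855, chromosome 5, 92346638 to 92348889, minus strand) is induced by interferon and is a ligand of Cxcr3. It was read at 45.9, 24.0, 31.2 and 22.9 CPM in βNrf2KO pools and at 36.1, 16.9 and 31.3 CPM in control pools. The groups overlapped over most of their range, with a log2 fold change of 0.14 ± 0.29 that was -0.12 without βNrf2KO pool 1 and likewise -0.12 without control pool 2. Cxcl10 lies within the span of Art3 on the other strand, and reads that fall on exons of both cannot be told apart where strand is not used.

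Cxcl16 (ENSMUSG00000018920, chromosome 11, 70453983 to 70459984, minus strand) is made as a membrane protein that also serves as a scavenger receptor, and its receptor is Cxcr6. It was read at 38.4, 18.1, 30.3 and 21.9 CPM in βNrf2KO pools and at 45.2, 12.3 and 11.98 CPM in control pools. All 4 βNrf2KO pools were above control pools 2 and 4 and below control pool 1. The log2 fold change was 0.23 ± 0.47. Leaving out control pool 1 gave 1.16, leaving out control pool 2 gave -0.06, and without control pool 4 it was -0.09. Without both pools numbered 1 it was 0.92. The 5′ end of Cxcl16 overlaps Zmynd15 on the other strand, so that reads there are uncertain.

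Cxcl12 (ENSMUSG00000061353, chromosome 6, 117168535 to 117181367, plus strand), the ligand of Cxcr4 that stromal and vascular cells make without inflammation, did not share the pool 1 pattern. It was read at 26.0, 72.4, 27.8 and 51.7 CPM in βNrf2KO pools and at 31.6, 63.1 and 30.5 CPM in control pools. Pool 2 was the highest in both genotypes. The log2 fold change was 0.10 ± 0.38, and it was -0.24 without βNrf2KO pool 2. Leaving out control pool 1, 2 or 4 gave -0.07, 0.52 or -0.09 in that order.

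Icam1 (ENSMUSG00000037405, chromosome 9, 21015985 to 21028817, plus strand) is the surface protein to which leukocyte integrins bind, and its 3′ end overlaps Gm47079 on the other strand. It was read at 59.0, 28.8, 29.1 and 27.2 CPM in βNrf2KO pools and at 104, 22.01 and 30.1 CPM in control pools. Pool 1 was at 2.08 times the mean of the other βNrf2KO pools and 3.98 times that of the other control pools, and the other 5 pools lay close together. The log2 fold change was -0.53 ± 0.53 over all pools, 0.46 without control pool 1 and 0.10 without both pools numbered 1.

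Nfkbia (ENSMUSG00000021025, chromosome 12, 55489411 to 55492647) and Tnfaip3 (ENSMUSG00000019850, chromosome 10, 19000910 to 19015657), both on the minus strand, had the highest CPM of the set. Nfkbia was read at 171, 274, 255 and 209 CPM in βNrf2KO pools and at 182, 291 and 409.7 CPM in control pools. Tnfaip3 was read at 157, 331, 181 and 223 CPM in βNrf2KO pools and at 210.0, 319 and 422 CPM in control pools. Both were lowest in pool 1 of each genotype, and both were highest of all pools in control pool 4.

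The log2 fold changes were -0.37 ± 0.25 for Nfkbia and -0.51 ± 0.28 for Tnfaip3, with overlapping groups. Control pool 4 carried much of the difference, which was -0.06 for Nfkbia and -0.25 for Tnfaip3 without it. Without control pool 1 Nfkbia was at -0.63, and without βNrf2KO pool 2 Tnfaip3 was at -0.76. Within 1 pool, counts of Ccl2 per count of Nfkbia were 0.183, 0.0404, 0.0742 and 0.0490 in βNrf2KO pools and 0.535, 0.0473 and 0.0223 in control pools, so that pool 1 was the highest of each genotype in this ratio as well.

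**Figure D2:**
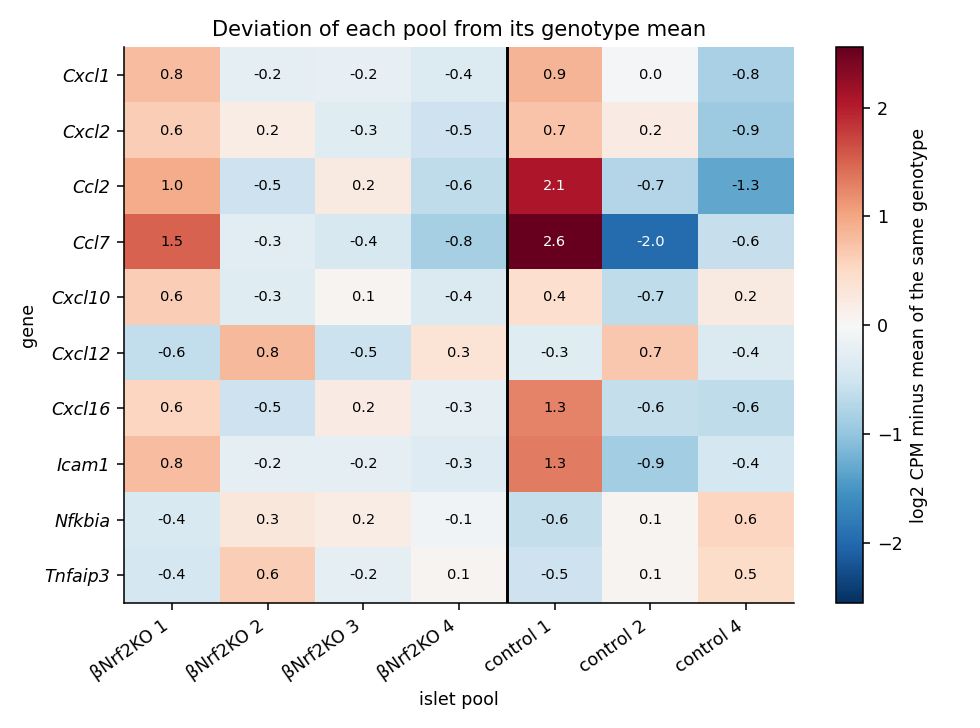
Each cell gives the log2 CPM of a gene (rows) in a pool (columns, βNrf2KO left of the black line, control right) minus the mean of that genotype, with red above and blue below it. The column of pool 1 is red for 7 genes and blue for Cxcl12, Nfkbia and Tnfaip3 in both genotypes.

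The pattern over pools was compared with other genes as a description over 7 points, after removal of each genotype's mean. The values of the 10 genes were standardized and averaged, which nets genes of opposite pattern against each other. Named genes with the highest Pearson correlation with this mean were Taf1c (r = 0.995), Clic3 (0.993), S100a6 (0.991), Pdlim5 (0.991), Resf1 (0.991), Nup210l (0.989), Mir17hg (0.988) and Rcl1 (0.988). Each was highest in pool 1 of both genotypes, so that the likeness rests largely on 2 of the 7 libraries. Taf1c, a subunit of the RNA polymerase I initiation factor, was at 14.1, 10.05, 8.38 and 6.86 CPM in βNrf2KO pools and at 16.1, 6.99 and 6.57 CPM in control pools.

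Between genotypes no gene of the set was called. By edgeR's quasi-likelihood test with Benjamini-Hochberg adjustment over 19893 genes, 0 genes (0%) had an adjusted p under 0.05, 0 of the 10 among them. At an unadjusted p under 0.05 there were 1683 genes (8.46%), 5.23% of all genes lower and 3.23% higher in βNrf2KO, and the set held 1 of them, Cxcl2, lower. DESeq2 called 1 gene and limma-voom 0. A fit with pool numbers as blocks called 14 genes (0.0704%), and again 0 of the 10.

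All 10 genes passed the filter on low counts, and 7 had a negative and 3 a positive log2 fold change, with a median of -0.52, against -0.01 over all tested genes. That median was 0.14 without control pool 1, 0.09 without both pools numbered 1, and it was -0.63 without βNrf2KO pool 1, so its sign depends on control pool 1. The pools of the 2 genotypes did not overlap for 3.80% of all genes in the lower and 3.19% in the higher direction, and for 0 of the 10. Cxcl1, Cxcl2 and Nfkbia were lower in βNrf2KO in each of the 3 pairs of pools with the same number, 3 of 10 against 17.9% of all genes. The choice of the genes used this contrast, and nothing is read from these counts.

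**Figure D3:**
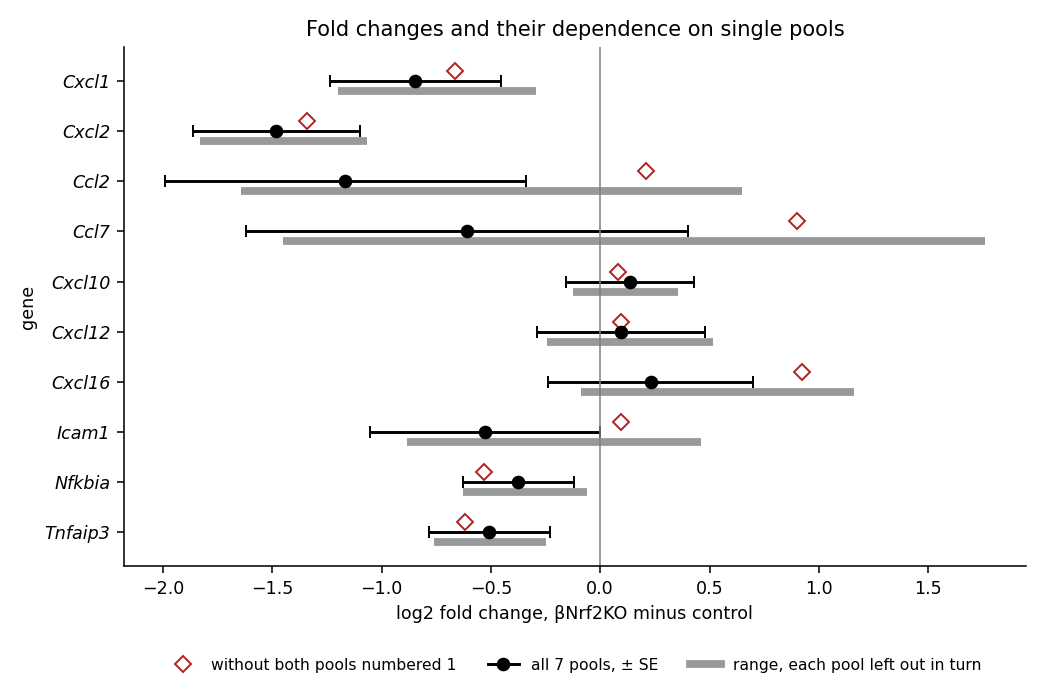
Log2 fold change of each gene (x axis, βNrf2KO minus control): black points with SE for all 7 pools, grey bars for the range when each pool is left out in turn, open diamonds without both pools numbered 1. Cxcl1, Cxcl2, Nfkbia and Tnfaip3 stay below 0 throughout, while Ccl2, Ccl7, Icam1, Cxcl10, Cxcl12 and Cxcl16 each change sign.

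Levels between genes were compared as RPKM, the CPM divided by exon length. Nfkbia was highest in every pool, at 108 to 260.0 RPKM (median 162), above Tnfaip3 at 21.8 to 58.4 RPKM (median 30.9) by 2.18 ± 0.26 on the log2 scale (mean and SD of the within-pool difference, n = 7). Ccl2 came next at 8.02 to 85.6 RPKM (median 12.1) and was above Tnfaip3 in the 2 pools numbered 1. Cxcl10 ranged from 7.52 to 20.4 RPKM (median 13.9). Its step to Icam1 (5.05 to 23.7 RPKM) was 0.58 ± 0.54 on the log2 scale.

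Apart from the steps below Nfkbia and below Cxcl10, no step between neighbours in the order was larger than its SD over the 7 pools. The order below Icam1 ran through Cxcl16 (median 7.24 RPKM), Cxcl1 (5.24), Cxcl12 (3.86) and Cxcl2 (3.00) to Ccl7 (1.46). Nfkbia stood at the 99.7th and Ccl7 at the 53.7th percentile of the mean RPKM of all tested genes.

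**Figure D4:**
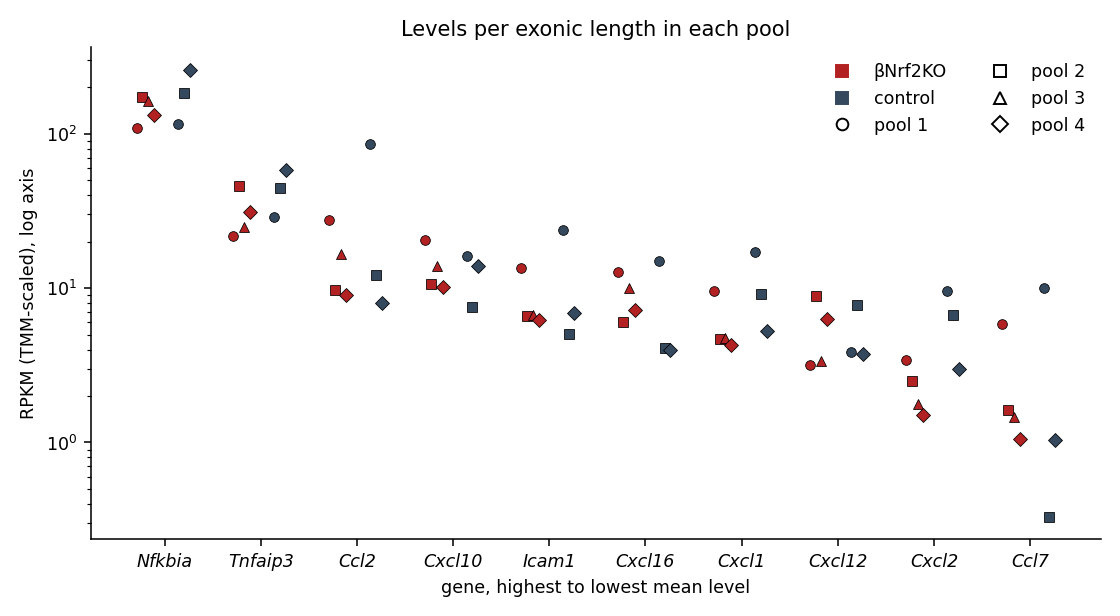
RPKM of each gene (log axis) in βNrf2KO pools (red, left) and control pools (dark, right), with genes in order of mean level and the pool number as the symbol. Nfkbia lies above all others in every pool, and below Tnfaip3 the ranges of the genes overlap.

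Receptors for these chemokines were low in whole islets, apart from the receptor of Cxcl12. Cxcr4 was read at 35.2, 46.0, 53.3 and 37.6 CPM in βNrf2KO pools and at 41.6, 7.65 and 12.9 CPM in control pools. Control pools 2 and 4 were below every βNrf2KO pool and control pool 1 was within their range, with a log2 fold change of 1.05 ± 0.49 (edgeR, adjusted p = 0.571). Ackr3, a scavenger of Cxcl12, differed by 0.37 ± 0.26 (adjusted p = 0.632). Among the other receptors of the set, Cxcr2 had 5 to 26 counts and Ccr2 12 to 39 counts per pool, and Cxcr3 had 0 to 6 and Cxcr6 19 to 69. Of 22 receptors listed 15 were tested and 0 called, 1 being higher at an unadjusted p under 0.05, against 3.23% of all genes (Ackr2, a scavenger of inflammatory CC chemokines, 1.30 ± 0.45, adjusted p = 0.571), and pool 1 was the highest in both genotypes for 1 of the 15.

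Among the other chemokines, 17 of 29 were tested and 0 called by edgeR. The 9 higher and 8 lower members had a median log2 fold change of 0.04. Cx3cl1, the membrane-bound ligand of Cx3cr1, averaged 26.0 ± 2.91 CPM in βNrf2KO and 25.4 ± 5.65 CPM in control pools (SD, n = 4 and 3). Ccl25, a thymic and gut chemokine, averaged 15.7 ± 1.28 CPM in βNrf2KO and 13.9 ± 4.75 CPM in control pools, and Ccl3, a macrophage chemokine, 4.49 ± 1.64 CPM in βNrf2KO and 4.23 ± 1.19 CPM in control pools. Ppbp, a platelet chemokine, differed by -0.89 ± 0.49 (edgeR, adjusted p = 0.587). Ccl28, a mucosal chemokine, differed by 1.13 ± 0.66, Ccl6 by -1.15 ± 0.41 and Cxcl13, which attracts B cells, by 2.97 ± 1.22 (edgeR, adjusted p = 0.599, 0.571 and 0.571). Pool 1 was the highest in both genotypes for 8 of the 17.

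Upstream of the set, 0 of 26 NF-κB subunits, kinases and receptors was called, 13 being higher and 13 lower (median 0.02). Rela, the main activating subunit, differed by -0.65 ± 0.25, Relb by -0.75 ± 0.33 and the TNF receptor Tnfrsf1a by 0.50 ± 0.19 (edgeR, adjusted p = 0.571 each). Il1r1, the receptor of interleukin 1, was the most abundant of the list at 388 ± 70.4 CPM in βNrf2KO and 298 ± 74.9 CPM in control pools (SD, n = 4 and 3). Next were the kinase Irak1 at 202 ± 11.8 CPM in βNrf2KO and 214 ± 29.9 CPM in control pools, the kinase adaptor Tab2 at 224 ± 47.9 CPM in βNrf2KO and 182 ± 22.4 CPM in control pools and Nfkb1, the gene of the p50 subunit. Nfkb1 was at 242, 137, 117 and 92.5 CPM in βNrf2KO pools and at 261, 147 and 123 CPM in control pools, highest in pool 1 of both genotypes. The summed list varied little, from 1724 to 1876 CPM in βNrf2KO and from 1749 to 1904 CPM in control pools.

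Other genes that NF-κB induces were read in the same pools. The summed list was at 889, 623, 515 and 516 CPM in βNrf2KO pools and at 995, 644 and 569 CPM in control pools, highest in pool 1 of both. Of its 29 tested members 18 were highest in pool 1 of both genotypes, against the 17.0% of all genes given above. Csf1, a growth factor of macrophages, was at 119, 58.7, 51.3 and 48.0 CPM in βNrf2KO pools and at 147, 49.2 and 37.3 CPM in control pools.

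Birc3, an inhibitor of apoptosis, averaged 61.0 ± 38.4 CPM in βNrf2KO and 75.3 ± 20.8 CPM in control pools, and Sod2, the mitochondrial superoxide dismutase, 63.6 ± 10.2 CPM in βNrf2KO and 64.0 ± 8.10 CPM in control pools (SD, n = 4 and 3). Birc3 was highest and Sod2 lowest in pool 1 of both genotypes.

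Further members with pool 1 highest in both genotypes were chosen after their values were seen. Csf3, a growth factor of neutrophils, was at 6.14, 1.31, 2.01 and 1.25 CPM in βNrf2KO pools and at 4.88, 0.659 and 0.962 CPM in control pools. The endothelial selectin Sele was at 40.4, 16.7, 17.9 and 16.9 CPM in βNrf2KO pools and at 28.8, 14.0 and 17.0 CPM in control pools. Between genotypes 0 of the 29 was called, with a median of -0.17, and 2 were higher and 3 lower at an unadjusted p under 0.05, against 3.23% and 5.23% of all genes. They include Gadd45b, a stress gene (-0.55 ± 0.18), the transcription factor Irf1 (-0.56 ± 0.23) and P-selectin, Selp (0.71 ± 0.30; edgeR, adjusted p = 0.571 each).

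The other feedback inhibitors were split. Zfp36, which destabilizes cytokine mRNAs, was lowest in pool 1 of both genotypes, at 166, 555, 508 and 524 CPM in βNrf2KO pools and 287, 582 and 777 CPM in control pools. Nfkbiz, an atypical IκB protein, was at 284, 422, 272 and 265 CPM in βNrf2KO pools and at 312, 601 and 408 CPM in control pools, and was highest in pool 2 of both. Rnf11, a ubiquitin ligase that works with A20, averaged 120.2 ± 13.3 CPM in βNrf2KO and 105 ± 17.7 CPM in control pools, and N4bp1 92.3 ± 12.7 CPM in βNrf2KO and 83.9 ± 14.3 CPM in control pools (SD, n = 4 and 3). Of the 16 genes 2 were lowest and 3 highest in pool 1 of both genotypes, against 15.6% and 17.0% of all genes. The summed list was at 1207, 1618, 1413 and 1387 CPM in βNrf2KO pools and at 1291, 1889 and 1801 CPM in control pools. As a sum, to which Zfp36 and Nfkbiz gave the most, it was lowest in pool 1 of both genotypes. Nfkbia and Tnfaip3 were also lowest there, while most single genes of the list were not. In the comparison of genotypes 0 was called and 8 were lower (median -0.14), among them Nfkbib (-0.75 ± 0.32) and Nfkbid (-0.68 ± 0.32; edgeR, adjusted p = 0.571 each).

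Immediate early genes are switched on within minutes of a stimulus, and as a sum they were lowest in pool 1 of both genotypes, as were Nfkbia and Tnfaip3. Their sum was 3431, 9391, 7307 and 8193 CPM in βNrf2KO pools and 4686, 12102 and 12678 CPM in control pools. Pool 1 was the lowest in both genotypes for 13 of the 16 genes, against 15.6% of all genes. Fos was at 368, 1349, 1258 and 1461 CPM in βNrf2KO pools and at 519, 1432 and 2253 CPM in control pools. Egr1, a zinc finger factor, averaged 2001 ± 974 CPM in βNrf2KO and 2287 ± 1183 CPM in control pools, and Jun, the partner of Fos, 559 ± 227 CPM in βNrf2KO and 608 ± 326 CPM in control pools (SD, n = 4 and 3), both lowest in pool 1 of both genotypes.

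Between genotypes 0 of the 16 immediate early genes was called, although 15 had a negative log2 fold change (median -0.39, against -0.01 over all genes) and 4 were lower at an unadjusted p under 0.05, against 5.23% of all genes. These include Fosb (-0.94 ± 0.39), Junb (-0.58 ± 0.24) and Klf6 (-0.56 ± 0.21; edgeR, adjusted p = 0.571 each). The summed levels overlapped (exact two-sided permutation p = 0.343, 0.467 adjusted over 7 lists; the smallest this design of 4 against 3 pools allows is 0.0571). That test does not use the pool numbers. The sum was lower in βNrf2KO in each of the 3 pairs of pools with the same number, and with pool numbers as blocks the median was -0.43 and 0 was called.

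Interferon-stimulated genes, to which Cxcl10 also belongs, were mostly higher in βNrf2KO, with 18 of 20 above 0, against 9818 of all 19893 genes. Their median log2 fold change was 0.56, against -0.01 over all genes, but 0 was called. At an unadjusted p under 0.05, 8 were higher and 0 lower, against 3.23% of all genes higher. Isg15, a ubiquitin-like protein, was at 2.03, 2.10, 1.78 and 1.10 CPM in βNrf2KO pools and at 0.454, 0.264 and 0.763 CPM in control pools (1.75 ± 0.47, edgeR, adjusted p = 0.571). The antiviral genes Ifit1 and Oasl2 differed by 1.75 ± 0.50 and 1.16 ± 0.36 (edgeR, adjusted p = 0.571 each). Differences were smaller for the most abundant members, the RNA sensor Ddx58 (0.33 ± 0.21), Stat2 (0.19 ± 0.21), Rsad2 (0.35 ± 0.20) and Gbp7 (0.47 ± 0.24; edgeR, adjusted p = 0.619, 0.750, 0.597 and 0.571). Cxcl10 stood at 0.14 ± 0.29, and its difference from the list was not tested.

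**Figure D5:**
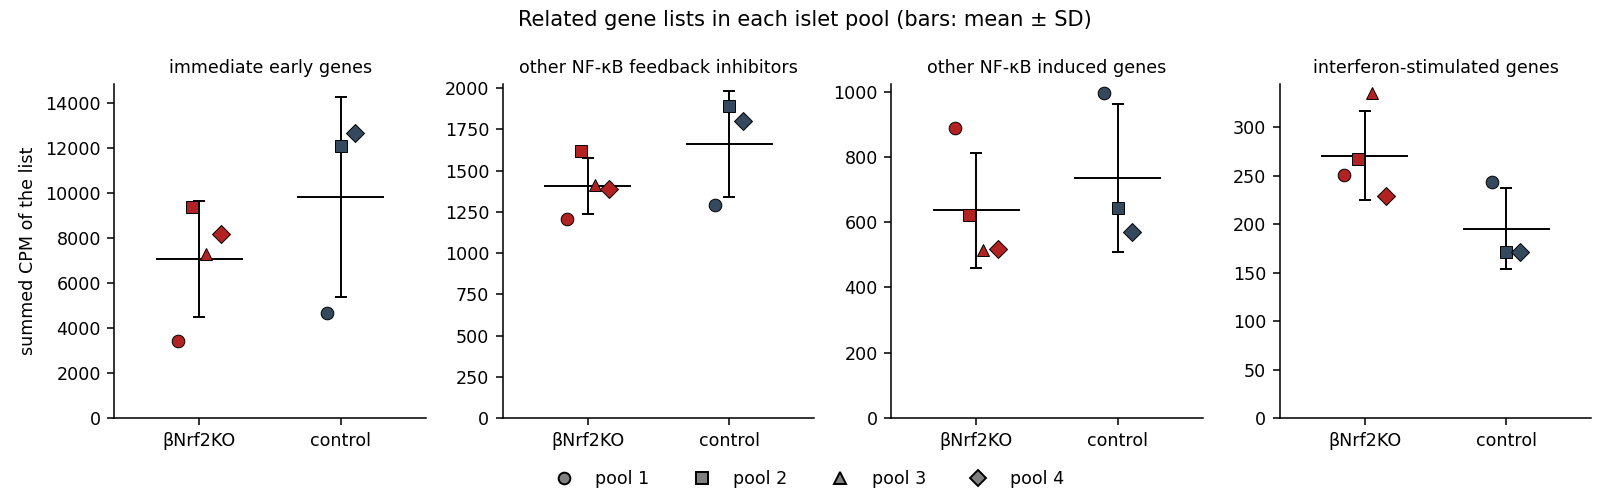
Summed CPM of 4 gene lists (y axes start at 0) in βNrf2KO pools (red, left) and control pools (dark, right), with bars for mean ± SD. Pool 1 (circles) has the lowest sum of both genotypes for immediate early genes and feedback inhibitors. It has the highest sum of both for genes induced by NF-κB. Of the 16 single feedback inhibitors, 2 were lowest and 3 highest in pool 1 of both genotypes.

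Markers of other islet cells, some able to make chemokines, were read in the same pools. The 13 macrophage markers summed to 65.5, 93.9, 62.6 and 72.1 CPM in βNrf2KO pools and to 129, 87.4 and 66.4 CPM in control pools. The sum was highest in pool 2 among βNrf2KO pools and in pool 1 among control pools, and 1 of the 13 markers was highest in pool 1 of both genotypes. Between genotypes 12 of the 13 were lower and 1 was higher in βNrf2KO (median -0.44, 0 called). Csf1r, the receptor of Csf1, averaged 9.50 ± 1.07 CPM in βNrf2KO and 13.1 ± 2.89 CPM in control pools (SD, n = 4 and 3). Ptprc, the pan-leukocyte marker, averaged 13.0 ± 5.50 CPM in βNrf2KO and 17.6 ± 4.06 CPM in control pools (SD, n = 4 and 3).

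Endothelial markers varied little, from 1246 to 1601 CPM in βNrf2KO and 1166 to 1369 CPM in control pools over the 10 genes. Cdh5, the vascular cadherin, averaged 333 ± 45.4 CPM in βNrf2KO and 281 ± 49.5 CPM in control pools, and Pecam1 291 ± 29.3 CPM in βNrf2KO and 237 ± 35.1 CPM in control pools (SD, n = 4 and 3). Fibroblast and pericyte markers ranged from 1019 to 1676 CPM in βNrf2KO and 1057 to 2798 CPM in control pools. In both genotypes they were highest in pool 2, as was Cxcl12. Of these markers 10 of 10 were lower in βNrf2KO (median -0.81, 0 called), against 10075 of all 19893 genes. By edgeR 6 of the 10 were lower at an unadjusted p under 0.05, against 5.23% of all genes. The pericyte marker Rgs5 averaged 482 ± 85.0 CPM in βNrf2KO and 838 ± 434 CPM in control pools, and the collagen gene Col1a1 247 ± 118 CPM in βNrf2KO and 398 ± 201 CPM in control pools (SD, n = 4 and 3). Acinar markers summed to 102, 216, 69.7 and 51.6 CPM in βNrf2KO pools and to 392, 145 and 60.9 CPM in control pools. Of these markers 8 of 8 tested were lower in βNrf2KO (median -0.96, 0 called). Their most abundant members, the protease precursor Ctrb1 and the lipase Cel, averaged 48.5 ± 33.7 CPM in βNrf2KO and 83.6 ± 69.7 CPM in control pools and 27.8 ± 20.5 CPM in βNrf2KO and 51.0 ± 51.5 CPM in control pools in that order (SD, n = 4 and 3). The part of these cell types in the values of the 10 genes was not tested.

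In the remaining lists the groups overlapped. Sums ranged over 33258 to 45688 CPM (βNrf2KO) and 16576 to 47297 CPM (control) for β-cell markers, over 5494 to 19217 and 4451 to 14731 CPM for α- and δ-cell markers, and over 393 to 566 and 408 to 418 CPM for ductal markers. Erythroid markers summed to 99.7 to 218 CPM in βNrf2KO and 131 to 249.2 CPM in control pools. Lymphocyte markers summed to 5.15 to 13.4 CPM in βNrf2KO and 12.5 to 13.4 CPM in control pools over 9 genes. The B-cell genes Cd79a and Ms4a1 made up the largest part, with 51 to 190 and 25 to 86 counts per pool. Of single endocrine, ductal and erythroid markers, Ins1 averaged 6609 ± 1048 CPM in βNrf2KO and 10475 ± 5099 CPM in control pools, Sst 465 ± 83.8 CPM in βNrf2KO and 587 ± 175 CPM in control pools and the keratin Krt8 132 ± 40.2 CPM in βNrf2KO and 133 ± 17.8 CPM in control pools. Krt7 averaged 115 ± 14.5 CPM in βNrf2KO and 86.9 ± 24.2 CPM in control pools, the heme enzyme Alas2 54.2 ± 30.7 CPM in βNrf2KO and 72.2 ± 21.2 CPM in control pools and Hba-a1 39.6 ± 17.0 CPM in βNrf2KO and 52.1 ± 18.1 CPM in control pools (SD, n = 4 and 3 throughout). The exact two-sided permutation p over the 10 marker lists was 0.114 at its smallest (adjusted 0.571).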

How the data were processed

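Islet RNA of 7-day-old mice was depleted of ribosomal RNA and sequenced, 1 library per pool of 5 animals (4 βNrf2KO, 3 control), per the labels' protocols. The authors deposited raw counts for each gene. The submitters' processing notes list bcl2fastq (2.20), Trimmomatic (0.36) and STAR (2.5.2b), with featureCounts from Subread (1.5.2) as the counter. What is not given in the sources used here is how strand and multi-mapping reads were handled and which annotation was counted. The build in those notes is newer than the exon coordinates of the files, which match GRCm38. Symbols were found for 48970 of 49315 gene IDs, and the row for Cre entered neither library sizes nor tests.

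Counts were tested with edgeR 4.0.16 (R 4.3.3; TMM, filterByExpr by group, robust quasi-likelihood test, two-sided, Benjamini-Hochberg over 19893 genes, threshold 0.05). Log2 fold changes are βNrf2KO minus control with the SE of that fit. CPM and RPKM use the TMM scaling, and log2 CPM a prior count of 2. Marker sums were compared by an exact permutation test over the 35 splits. Nothing in the labels shows whether pools came from separate litters or days, so p-values measure the spread between pools.

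Same-numbered pools deviated together from their group means (r = 0.376, 0.229 and 0.323 for numbers 1, 2 and 4, across genes). The main test nevertheless used genotype alone, since the labels do not explain the numbers. Numbers served as pairs only in the fit with a block and in comparisons of same-numbered pools. Of the 9 pairs with different numbers, βNrf2KO pool 3 and control pool 4 also correlated (r = 0.241), above the value for number 2. The other 8 were below 0. Once group means are removed, deviations within a genotype sum to 0 for each gene. Values of both signs are therefore partly forced, since for each βNrf2KO pool negative values must come with positive ones over the control pools. The r values describe the pools and are not a test of pairing. βNrf2KO pool 3 has no partner and adds nothing to the difference in the fit with a block. Alternatives were RLE scaling, library sizes without the mitochondrial genome, no filter, 1 CPM in 3 pools, DESeq2 1.42.0, limma-voom (limma 3.58.1), the block, each pool left out and a threshold of 0.1.

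The 10 genes, the lists and the tests were chosen with earlier results of these data known. Named were the 10 genes, Nfe2l2, up to 4 of the most abundant and 3 of the smallest-p genes of each pathway list, up to 2 of the most abundant of each marker list and the 8 genes most alike in pattern, with exceptions stated where they occur.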

Additional observations from a re-analysis of the deposited data

Results flagged for a closer look

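In βNrf2KO islets, 1 of the 4 pools stood far from the others in 4 of 27 measures examined. Chance flags about 1 in 20 of independent measures. The 27 include genes chosen with results in view, and some vary together, so no excess over chance is read. Cxcl1 was at 4.18 log2 CPM and Icam1 at 5.88 log2 CPM in βNrf2KO pool 1, above the other 3 pools, which lay close together. The neutrophil markers summed to 98.1 CPM in βNrf2KO pool 2, against 2.42 to 3.14 CPM in the other βNrf2KO pools and 3.91 to 7.71 CPM in control pools. Each of the 8 markers had its highest CPM in that pool. Ngp, a granule protein of immature neutrophils, had 80.7 CPM there, and S100a8, a calcium-binding protein of myeloid cells, 9.44 CPM. The others ran from 0.280 CPM for Elane to 3.04 CPM for Mmp8, both named after their values were seen. Camp, named likewise, had 7 counts in βNrf2KO pool 2 and 6 in βNrf2KO pool 3. Most of the sum was thus Ngp, and the markers did not rise evenly. Cxcl1 and Cxcl2, the ligands that attract neutrophils, were at 8.79 and 5.19 CPM in βNrf2KO pool 2, both below βNrf2KO pool 1 (18.0 and 7.05 CPM). A link between them and the neutrophil markers was not tested. The fibroblast and pericyte markers summed to 1676 CPM in βNrf2KO pool 2, against 1019 to 1094 CPM in the other 3.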

How the results depend on the processing

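Cxcl1, Cxcl2, Nfkbia and Tnfaip3 kept a negative log2 fold change in every alternative, and no alternative called any of the 10 genes. Of 150 values of the 10 genes under alternatives, 15 changed sign. With limma-voom and quality weights Cxcl10 was at -0.0306, and Ccl7 at 0.15 with the replicate block. Without both pools numbered 1 (chosen after seeing the data) Ccl2 was at 0.21, Ccl7 at 0.90 and Icam1 at 0.10, and the median of the 10 genes was 0.0875. With each pool left out in turn the median ran from -0.70 to 0.14, Cxcl1 from -1.20 to -0.29, Cxcl2 from -1.83 to -1.07, Ccl2 from -1.64 to 0.65, Ccl7 from -1.45 to 1.76, Cxcl10 from -0.12 to 0.35, Cxcl12 from -0.24 to 0.52, Cxcl16 from -0.0871 to 1.16, Icam1 from -0.88 to 0.46, Nfkbia from -0.63 to -0.06 and Tnfaip3 from -0.76 to -0.25. Calls over all genes numbered 0, 14 with the block and 1 with DESeq2, and 0 to 1 with each pool left out (1 without control pool 4); the cause was not tested. Levels of the 10 genes under RLE and marker sums without the mitochondrial genome moved by less than 1 SD. The marker sums were first set to the same mean over all pools. Only their relative levels between genotypes were thus compared. TMM scaling was also set anew without the mitochondrial genes, which leaves little room for a change. The comparison therefore says little about the mitochondrial share. Ccl7, with 4 to 142 counts per pool, is the gene most limited by depth.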
